A study of Homo sapiens with 16 samples.

Results

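Among the genes named for brain metastases of the HCC1954 breast cancer line, 6 are known for neuronal, synaptic or excitable-cell roles, or as relatives of such genes: APBB1, APLP1, STX1A, FGF14, ITPKA and SYPL2. They were chosen by name from the Gene Ontology table deposited for that line, and every row of that table and of the MDA231 table that names any of them was then taken. All 6 were among the 30 genes the HCC1954 table names, and 30 genes are 0.179% of the 16792 background genes. Both tables together name 2676 genes. Since membership in the HCC1954 table chose these genes, their presence there and the values of their terms are a description and no test is attached to them.

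The series holds 16 libraries from mouse brains that carried human tumours, in groups of 4: immunoprecipitated (IP) and input RNA of HCC1954, an ERBB2-positive line, and IP and input RNA of MDA231, a triple-negative line. Each line was a brain-metastatic derivative, was injected into xenograft mice and grew for 30 days. Every mouse, input groups included, was given 250 mg/kg 5-fluorocytosine and its brain was taken after 12 hours; an anti-BrdU antibody then recovered labelled RNA. Such labelling, called Flura-seq, marks new RNA in cells that can convert 5-fluorocytosine, so that tumour RNA can be drawn from a whole organ. The labels give no age, sex or strain of the mice, no promoter for a converting enzyme and no number of brains per library.

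Only the enrichment tables enter here, so no level, depth or replicate error is known for any gene, and a library cannot be checked against its label. The HCC1954 list had 88 submitted genes; 66 of them carried a biological process and 30 stood in one of the 37 listed terms. The remaining 36 genes with a process are not named. How the genes were chosen, and whether they were higher or lower in IP than in input RNA, is not given in the sources used here. No direction can therefore be attached to any of the 6 genes.

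Neurons release transmitter when a vesicle fuses with the plasma membrane through a bundle of SNARE proteins, and they fire through voltage-gated sodium channels whose gating is tuned by intracellular partners. The amyloid precursor protein (APP) family are membrane proteins, abundant in neurons, whose cytoplasmic tails bind adaptor proteins. STX1A, syntaxin 1A, is a plasma membrane SNARE of neurons and endocrine cells. FGF14 is a fibroblast growth factor homologous factor, which stays inside the cell and binds voltage-gated sodium channels. APLP1 is a member of the APP family, and APBB1 is an adaptor that binds the tails of that family and can act in the nucleus with the acetyltransferase KAT5. ITPKA phosphorylates inositol trisphosphate, the messenger that opens calcium stores, and bundles actin in dendritic spines. SYPL2 is a relative of the synaptic vesicle protein synaptophysin and is known from the triad junctions of skeletal muscle.

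The genes lie on 6 different chromosomes in GENCODE release 29 (GRCh38), and all are annotated as protein-coding. APBB1 (ENSG00000166313) spans chromosome 11, 6395124 to 6419414, minus strand, with 15 exons in its longest coding transcript. APLP1 (ENSG00000105290) spans chromosome 19, 35867899 to 35879791, plus strand, with 17 exons. STX1A (ENSG00000106089) spans chromosome 7, 73699206 to 73719672, minus strand, with 10 exons. These 3 genes span 24291, 11893 and 20467 bases. FGF14 (ENSG00000102466) spans chromosome 13, 101710804 to 102402457, minus strand, and at 691654 bases is the longest of the 30 named genes, although its longest coding transcript has 5 exons. ITPKA (ENSG00000137825) spans chromosome 15, 41493393 to 41503551, plus strand, over 10159 bases and 7 exons. SYPL2 (ENSG00000143028) spans chromosome 1, 109466628 to 109482137, plus strand, over 15510 bases and 6 exons.

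None of the 6 genes lay beside another gene of the HCC1954 table. The closest case was APLP1, 5339412 bases from AXL. Overlap with other genes was found for 3 of them. STX1A shares 5956 bases with BUD23 on the opposite strand, APLP1 shares 1389 bases with NPHS1 on the opposite strand, and FGF14 overlaps 13 annotated genes, among them ITGBL1 on the opposite strand over 10053 bases. Whether counting used strand is not given in the sources used here, so reads from these overlaps cannot be assigned to either gene. None of BUD23, NPHS1 and ITGBL1 is named in either table.

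The sequences before the annotated starts of these genes are shown for STX1A, SYPL2 and FGF14, because they hold the extremes of the GC-box counts and every E-box found among the 6 genes. Each is a RefSeq window on GRCh38.p14, 250 bases before to 50 bases after a start, written along the gene's strand. Capitals mark GC boxes (GGGCGG on either strand) and E-boxes (CACGTG).
STX1A, chr7:73719620-73719919, minus strand: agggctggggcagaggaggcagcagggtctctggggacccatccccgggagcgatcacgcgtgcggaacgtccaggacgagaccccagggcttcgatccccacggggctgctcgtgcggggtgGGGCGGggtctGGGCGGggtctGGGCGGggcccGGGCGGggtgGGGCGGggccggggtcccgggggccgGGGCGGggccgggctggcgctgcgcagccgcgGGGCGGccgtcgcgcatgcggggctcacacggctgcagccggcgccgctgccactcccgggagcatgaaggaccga
SYPL2, chr1:109466296-109466595, plus strand: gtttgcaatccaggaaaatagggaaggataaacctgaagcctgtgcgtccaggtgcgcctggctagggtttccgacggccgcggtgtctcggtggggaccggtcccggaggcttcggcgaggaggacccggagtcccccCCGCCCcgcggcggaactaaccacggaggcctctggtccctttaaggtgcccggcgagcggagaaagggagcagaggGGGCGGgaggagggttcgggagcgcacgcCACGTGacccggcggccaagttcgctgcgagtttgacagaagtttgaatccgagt
FGF14, chr13:101916896-101917195, minus strand: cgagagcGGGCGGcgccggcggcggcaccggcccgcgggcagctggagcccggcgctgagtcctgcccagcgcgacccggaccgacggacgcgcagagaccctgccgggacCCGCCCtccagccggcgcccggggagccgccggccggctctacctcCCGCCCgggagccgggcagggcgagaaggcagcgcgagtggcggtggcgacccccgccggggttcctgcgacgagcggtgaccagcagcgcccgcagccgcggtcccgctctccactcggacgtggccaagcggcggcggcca
FGF14, chr13:102402394-102402693, minus strand: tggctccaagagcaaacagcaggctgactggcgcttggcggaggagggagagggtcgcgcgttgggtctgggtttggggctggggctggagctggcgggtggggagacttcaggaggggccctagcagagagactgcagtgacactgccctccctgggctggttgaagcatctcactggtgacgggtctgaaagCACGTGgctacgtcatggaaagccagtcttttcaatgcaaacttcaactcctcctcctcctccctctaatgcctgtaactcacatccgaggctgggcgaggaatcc

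All 6 genes had a window in the RefSeq table, 14 windows in all, since APBB1 has 6 and FGF14 has 4 that partly overlap. The STX1A window held 7 GC boxes, as did that of APLP1, and these were the highest counts. In the printed FGF14 windows, the start inside the gene held 3 GC boxes and the far upstream start held none and 1 E-box. SYPL2 held 2 GC boxes and 1 E-box. A GC box was in 10 of the 14 windows (71.4%), against 60.9% of 23 windows of 17 other genes named in the HCC1954 table and 45.0% of all 35116 windows. That table names 24 other genes, and those beyond the 17 had no window matched to their symbol. An E-box was in 3 of the 14 windows (21.4%), 2 of them overlapping windows of FGF14, against 0 of those 23 and 7.26% of all windows. RE1, the element bound by the REST repressor of neuronal genes, was searched as its left part TTCAGCACC and its right part GGACAG, on both strands. The left part was in 0 of 14 windows and in 0.376% of all, and the right part in 3 of 14 (21.4%) and in 20.5% of all. TATAAA was in 0 of 14 windows and in 11.5% of all, TGACGTCA in 0 of 14 and in 1.85% of all, and CCAAT in 1 of 14 (7.14%) and in 34.6% of all. A match is a letter match and not a site, and nothing follows from a missing match.

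GC content differed among the windows of these genes. APLP1 had 77.7%, STX1A 79.3% and ITPKA 78.0%, each at or above the value of at least 95% of all windows. FGF14 ran from 53.7% to 81.0% over its 4 windows, and APBB1 from 55.7% to 77.3% over its 6. SYPL2 had 65.7%. The median over the 14 windows was 64.7%, against 66.0% over the 23 windows of other HCC1954 genes and 58.7% over all windows. Of the 4 genes with a single window SYPL2 was the lowest, while the starts of FGF14 and APBB1 covered much of the range.

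**Figure D1:**
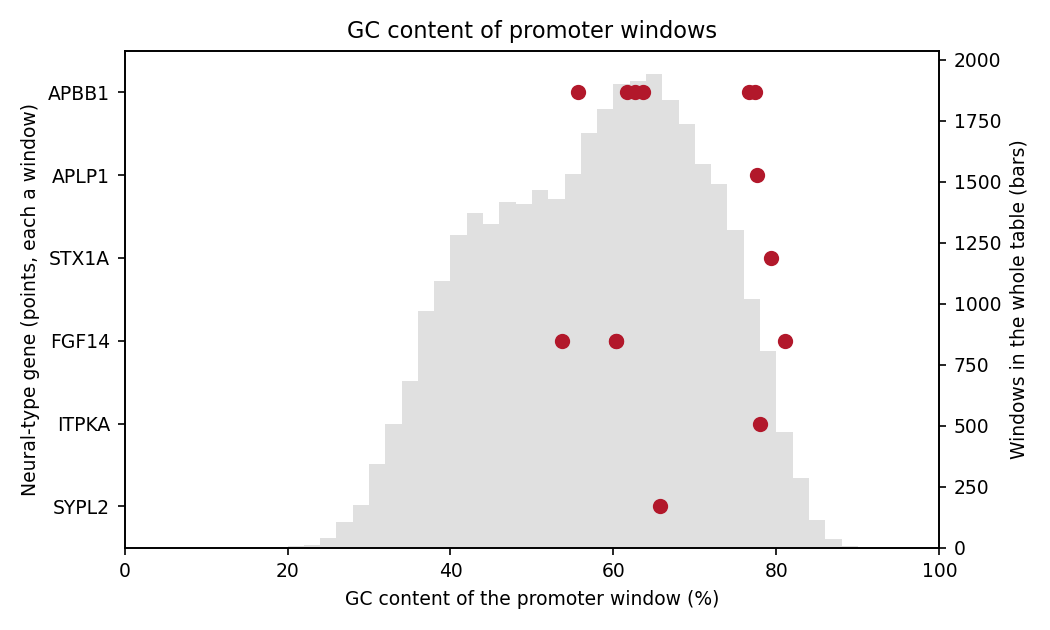
Points give the GC content (percent, horizontal axis) of each RefSeq promoter window of the 6 neural-type genes, 1 row a gene; grey bars count all 35116 windows in 2-percent bins (right axis). APLP1, STX1A and ITPKA sit at 77.7% to 79.3%, and the FGF14 windows spread between 53.7% and 81.0%.

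The 6 genes stood in 8 of the 37 HCC1954 terms (21.6%), and none of these 8 terms is about neurons, synapses or muscle by its name. They were protein secretion, cell growth, apoptosis, signal transduction, secretion, transport, organ morphogenesis and cell-cell signaling. APBB1 was in 4 of the 8 terms, FGF14 in 2, and APLP1, STX1A, ITPKA and SYPL2 in 1 each. The neural label thus comes from what the genes are known for elsewhere and not from the terms that named them. By the authors' deposited table, of the 8 terms 7 had an unadjusted p under 0.05, against 67.6% of the 37 listed terms and 3.54% of 707 tested terms. The highest unadjusted p of any listed term in that table was 0.0995. Listed terms thus all had a low p, and the share of tested terms is not a like comparison for the 8. The authors' deposited table held 0 terms with a Benjamini p under 0.05 among the 8 and 0 among all 37 (0%).

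**Figure D2:**
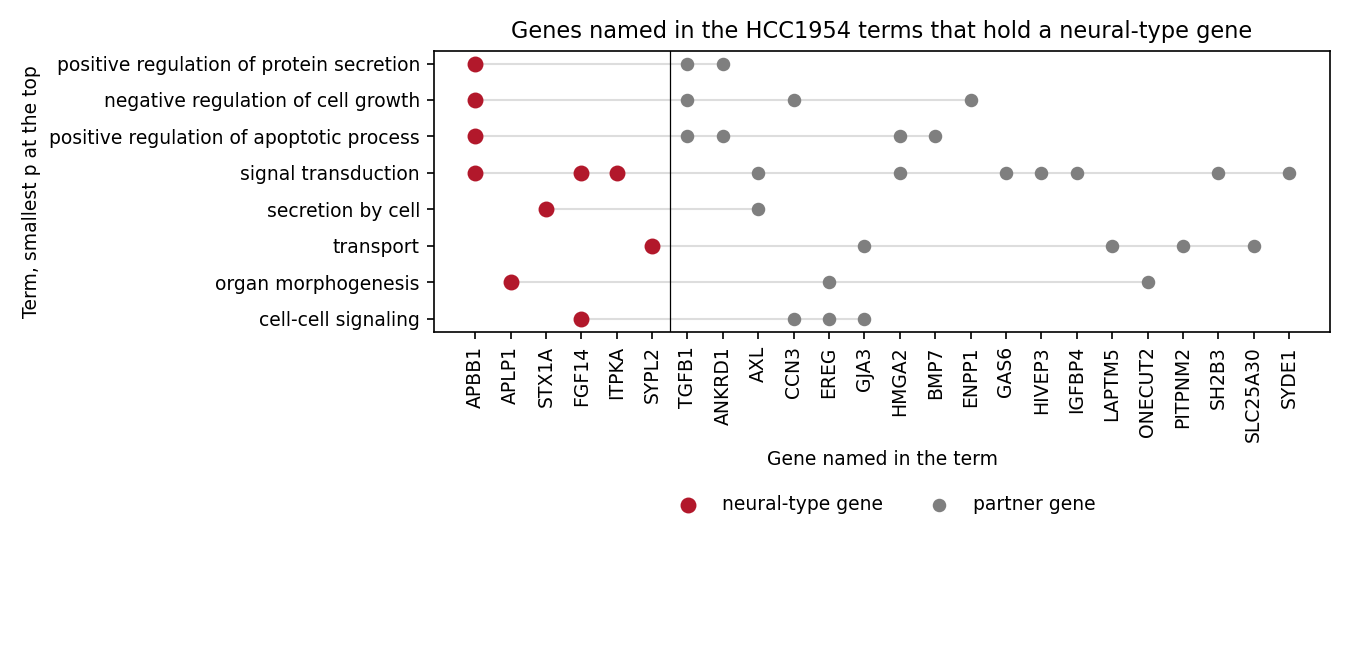
Dots show which genes (horizontal axis) each of the 8 HCC1954 terms (vertical axis, smallest p at the top) names; red dots are the 6 neural-type genes and grey dots their 18 partners. Signal transduction is the row with more than 1 red dot, and APBB1 is the red column with most dots, 4.

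APBB1 was named beside growth factors and other genes of growth control. Its leading term was positive regulation of protein secretion, shared with TGFB1, the cytokine transforming growth factor beta 1, and ANKRD1, an ankyrin repeat protein of muscle. That term held 3 of its 36 background genes, where the share of the background in the term would give 0.141 genes in a list of 66. The authors' deposited table gave a fold of 21.2 (Clopper-Pearson 95% interval of this fold, 4.42 to 59.3; deposited unadjusted p = 0.00854, Benjamini p = 0.867). Negative regulation of cell growth named APBB1 with TGFB1, the matricellular protein CCN3 and ENPP1, a phosphodiesterase of the cell surface. It held 4 of 121 background genes, and the authors' deposited table gave a fold of 8.41 (interval 2.33 to 20.5; unadjusted p = 0.0115, Benjamini p = 0.806).

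Positive regulation of apoptotic process named APBB1 with BMP7, a bone morphogenetic protein, HMGA2, a chromatin protein, ANKRD1 and TGFB1. It held 5 of 300 background genes, for which the authors' deposited table gave 4.24-fold enrichment (interval 1.40 to 9.40; unadjusted p = 0.0289, Benjamini p = 0.874). APBB1 shared 3 of its 4 terms with TGFB1, and the remaining term held both AXL and GAS6, a receptor kinase and its ligand. No APBB1 term was free of TGFB1, GAS6 and AXL. These genes are common in the whole table: TGFB1 was in 21 of all 37 terms, and at least 1 of the 3 was in 29. TGFB1 was in 3 of the 8 terms that name any of the 6 genes and in 18 of the other 29. Outside the 6 genes APBB1 had 12 partners, the most of the 6, and FGF14 had 10.

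FGF14, ITPKA and APBB1 met in signal transduction, the broadest term of the table. It named 10 listed genes of 1161, with AXL, GAS6, HMGA2, the insulin-like growth factor binding protein IGFBP4, the adaptor SH2B3, the zinc finger protein HIVEP3 and the GTPase-activating protein SYDE1 as the other 7. The background share would give 4.56 genes, and the authors' deposited table gave a fold of 2.19 (interval 1.09 to 3.78; unadjusted p = 0.0340, Benjamini p = 0.848). This fold was the lowest of all 37 terms. Of the 15 pairs that the 6 genes form, 3 shared a term, and all 3 pairs shared this one. ITPKA was in no other term, so no narrower process can be given for it.

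FGF14 was also in cell-cell signaling, with the gap junction protein GJA3, the epidermal growth factor family ligand EREG and CCN3. That term held 4 of 254 background genes, and its fold in the authors' deposited table was 4.01 (interval 1.11 to 9.78; unadjusted p = 0.0755, Benjamini p = 0.882). It was the weakest of the 8 by p and ranked 32 of 37. FGF homologous factors are known to stay inside the cell, and the table does not show what placed FGF14 in this term.

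STX1A was named in secretion by cell, the process nearest to its known role, and its sole partner was AXL. The term has 10 background genes, of which these 2 were listed. Its fold in the authors' deposited table was 50.9 (interval 6.20 to 177; unadjusted p = 0.0381, Benjamini p = 0.839), the highest of the 8. It rests on a pair of genes: without STX1A, 1 listed gene among 9 remained.

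APLP1 was named in organ morphogenesis with EREG and ONECUT2, a homeodomain transcription factor. The term held 3 of 92 background genes, 8.30-fold by the authors' deposited table (deposited p = 0.0494 unadjusted, interval 1.73 to 23.2, Benjamini p = 0.819). APLP1 and its binding adaptor APBB1 shared 0 terms.

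SYPL2 was named in transport, beside the lysosomal membrane protein LAPTM5, GJA3, the mitochondrial carrier SLC25A30 and PITPNM2, a phosphatidylinositol transfer protein. Transport held 5 of 348 background genes, 3.66-fold by the authors' deposited table (deposited p = 0.0458 unadjusted, interval 1.21 to 8.11, Benjamini p = 0.809). SYPL2 shared no partner with APBB1, APLP1, STX1A or ITPKA, and shared GJA3 with FGF14. Transport, organ morphogenesis and cell-cell signaling were the 3 terms of the 8 without TGFB1, GAS6 and AXL.

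Each fold was then recomputed with the neural-type genes taken out of the term, the list and the background, which shows how much of a term they carried. All 8 folds stayed above 1. Signal transduction moved most in number of genes, with 7 of 10 genes left and a fold of 1.61. Secretion by cell had 28.7 left on 1 gene, positive regulation of protein secretion 14.8 on 2, and organ morphogenesis 5.68 on 2. Negative regulation of cell growth had 6.46, positive regulation of apoptotic process 3.46, cell-cell signaling 3.06 and transport 2.98. The median over the 8 terms was 4.57 without these genes, against 6.27 with them. Each value without them lay inside its term's interval with them. Taking named genes out of a term can only lower its fold, and intervals on so few genes are wide. The direction and the place inside the interval were thus set in advance, and nothing is read from them.

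**Figure D3:**
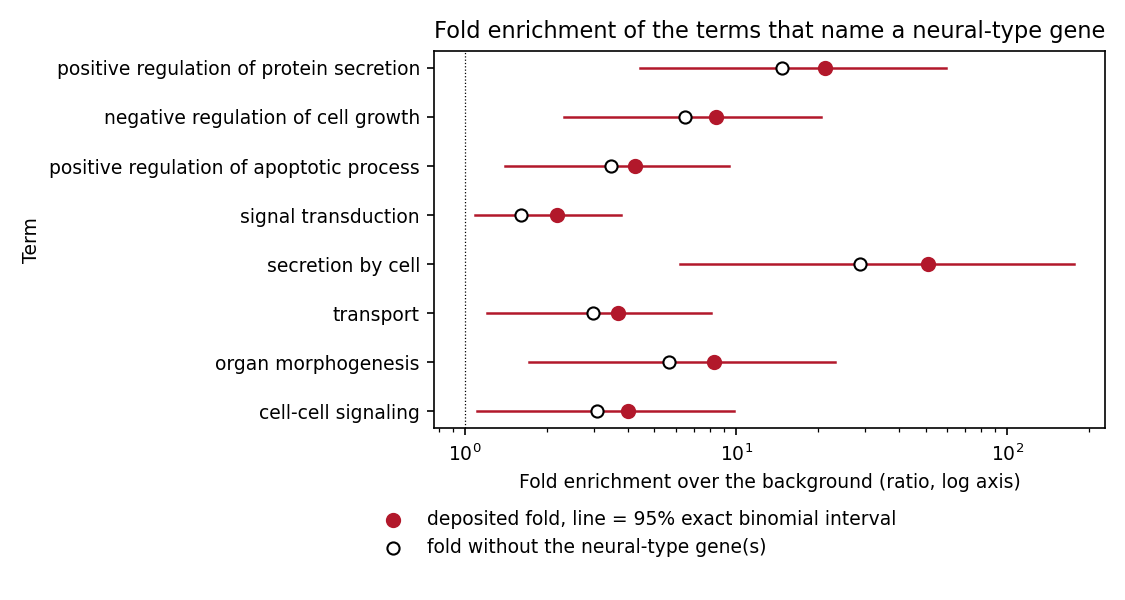
Red points give the fold enrichment of the 8 terms in the authors' deposited table (horizontal axis, a ratio on a log axis) with 95% exact binomial intervals as lines; open points give the fold without the neural-type genes. Every open point lies left of its red point, where the removal of named genes must put it, and right of 1. It also lies inside the interval, which is wide.

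The 8 terms were broader than the rest of the table. They had a median of 187.5 background genes (range 10 to 1161), against 23 (range 3 to 396) for the other 29 terms. The median fold was 6.27 for the 8 terms and 23.1 for the other 29, in the authors' deposited table. At a given number of listed genes the fold is fixed by the size of the term, so the differences in size and fold are not separate observations. A pair of genes made up 1 of the 8 terms and 18 of the other 29. TGFB1, GAS6 or AXL stood in 5 of the 8 terms and in 24 of the other 29. The 8 terms were picked because they name any of the 6 genes, and a term that names more genes is likelier to do so. Their median was 4 listed genes, against 2 for the other 29. The terms share genes and the 6 genes were chosen from this table, so no test was made of these differences.

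**Figure D4:**
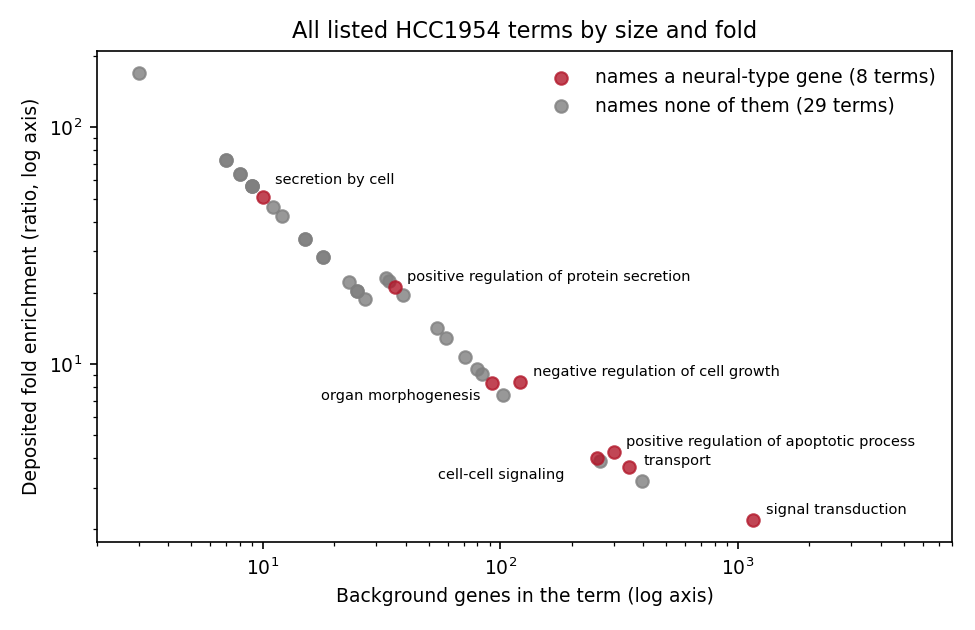
Each point is 1 of the 37 HCC1954 terms, placed by the number of background genes in it (horizontal, log axis) and its deposited fold enrichment (vertical, log axis); red points name a neural-type gene and grey points do not. Of the red points, secretion by cell is far left with 10 genes, and signal transduction is farthest right with 1161.

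The 18 partners were mostly shared with a single term. TGFB1, which was in 21 terms of the whole table, met these genes in 3 terms, and ANKRD1, AXL, CCN3, EREG, GJA3 and HMGA2 in 2 each. The other 11 did so once. AXL was the partner that met most of the 6 genes, namely APBB1, FGF14, ITPKA and STX1A. The remaining 6 genes of the 30 shared no term with any of the 6.

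The MDA231 table named none of the 6 genes in any of its 314 terms. It names 2646 genes, 15.8% of the background, and at that share 6 genes are too few for anything to be read from this count. None of the 8 terms is in that table either, and neither is any other of the 37 HCC1954 terms. A gene appears in these tables only through a listed term, and 980 of the 3626 MDA231 genes with a process are in none, so absence from the table does not show absence from the list.

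Relatives and working partners of the 6 genes were looked up in both tables, in 5 lists of 140 genes that do not include the 6. The HCC1954 table named 0 of the 140, where 0.179% of background genes are named. The MDA231 table named 26 of the 140 (18.6%), against 15.8% of background genes. No test was made on these lists, and which of their genes were in the background is not given in the sources used here.

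Syntaxins and the exocytosis machinery had 16 of 49 genes in the MDA231 table (32.7%), the highest share of the 5 lists. STX5, a Golgi syntaxin, was in 11 terms, NSF, the ATPase that takes SNARE bundles apart, in 7, and NAPA, its adaptor, in 6. STX4, a syntaxin of the plasma membrane, was in 5, and SNAP23, SNAP29, STX17 and STX18 were in 4 each. Intracellular protein transport, which named 7 genes of the relatives' lists, held 87 of 236 background genes at 1.71-fold (Benjamini p = 0.000235 in the authors' deposited table). Membrane fusion named 8 such genes and held 16 of 44 at 1.68-fold (unadjusted p = 0.0382, Benjamini p = 0.842 in the authors' deposited table). The related syntaxin STX3 was also named, in 4 terms, and was picked out after its values were seen. Synaptic vesicle fusion to presynaptic active zone membrane named STX3, STX4, SNAP23, SNAP29 and SNAP47 among 6 listed genes of 12, at 2.32-fold (Benjamini p = 0.965 in the authors' deposited table). The neuronal SNARE genes SNAP25 and VAMP2, and SYT1, a calcium sensor of synaptic vesicles, were not named.

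The other lists had fewer named genes in the MDA231 table. The APP family and APBB adaptor list had 3 of 25 (12.0%): KAT5 in 13 terms, led by DNA replication (1.76-fold, Benjamini p = 0.00339 in the authors' deposited table); APP in 3, protein phosphorylation, neuron projection development and endocytosis; and the lipoprotein receptor LRP8 in 2. APLP2, APBB2 and APBB3, the closest relatives of APLP1 and APBB1 apart from APP, were not named. The FGF homologous factor and sodium channel list had 2 of 19 (10.5%). They were FGF13, in protein localization to plasma membrane, and ANK3, the ankyrin that anchors sodium channels, in 2 terms. No sodium channel gene was named.

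The inositol phosphate list had 5 of 27 genes (18.5%). PLCB1, a phospholipase C, and CAMK2G, a calmodulin-dependent kinase, were in 5 terms each, the calcium release channels ITPR1 and ITPR3 in 3 and 2, and the inositol kinase IPMK in 1. ITPKB and ITPKC, the nearest relatives of ITPKA, were not named. The synaptophysin family and triad junction list had 0 of 20. By family, the MDA231 table thus named relatives of STX1A (STX4 and other syntaxins), FGF14 (FGF13), APLP1 (APP) and ITPKA (IPMK), and no family relative of APBB1 or SYPL2 from these lists.

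Marker genes of other cell types were looked up in the same way. The HCC1954 table named 0 of 30 neuron, 0 of 10 astrocyte, 0 of 10 oligodendrocyte, 0 of 12 microglia and 0 of 12 skeletal muscle markers; with 0.179% of background genes named, lists of this size would hold none at that share, so nothing is read from these counts. The MDA231 table named 1 of 30 neuron markers, MAP2, a microtubule protein of dendrites, and 0 in each of the other 4 lists. In all this was 1 of 74 markers (1.35%), against 15.8% of background genes. Neuron markers RBFOX3, TUBB3, SYN1 and GRIN1 were in neither table. The identifiers in both tables are human, while the submitters' processing notes name a human and a mouse build; how reads of the mouse brain were set apart is not given in the sources used here. With names only and no levels, the part of brain tissue in these lists was not tested.

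**Figure D5:**
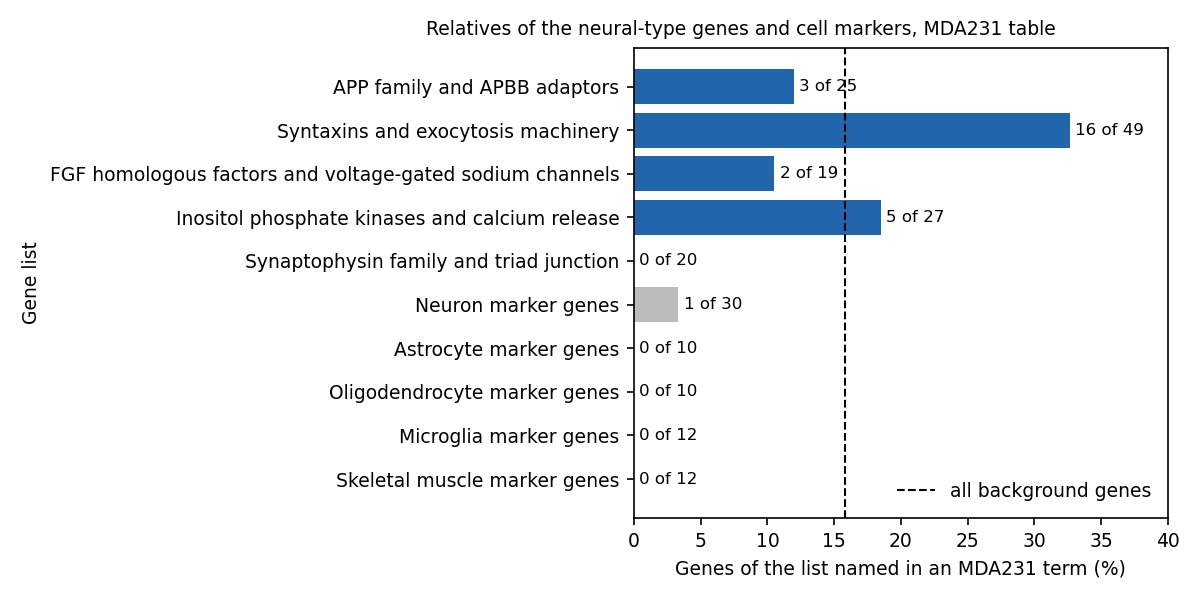
Bars give the percent of each gene list named in an MDA231 term (horizontal axis), in blue for the 5 lists of relatives and in grey for the 5 marker lists, with counts beside them; the dashed line is the 15.8% of all background genes that are named. The syntaxin and exocytosis list reaches 16 of 49, and the synaptophysin list stays at 0 of 20.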

How the data were processed

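The submitters' processing notes name STAR, HTSeq and the builds GRCh38 and GRCm38, and per the labels' protocols IP used 2.5 µg of antibody per brain. The authors deposited 1 table of Gene Ontology biological processes per line. By its columns, per the file headers, a row holds counts of listed and background genes, the percent of submitted genes, a fold enrichment (a ratio of shares), and p-values, unadjusted and adjusted. For the enrichment tool and the choice of genes nothing is given in the sources used here.

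Identifiers were matched to symbols (30 of 30 for HCC1954, 2645 of 2646 for MDA231). Submitted genes were derived from count and percent, and the 707 tested terms from the Bonferroni values. Intervals are Clopper-Pearson and cover the draw of genes only, and depth is unknown. They hold the background share of a term fixed and are a separate calculation from the deposited p, so an interval and a p can differ. Every listed term had a low p, so intervals above 1 are partly set by that selection. The members and lists were chosen with earlier results of these data known. Named genes are the 6, their partners and at most 8 named genes per list by number of terms; unnamed relatives and markers were picked as examples after the look-up. No test was run here; the p-values are the authors'. Fold, interval and motif counts were tested on simulated data. Alternatives varied the p, size and gene-count limits, overlap, single genes and matching. Python 3.11.15, SciPy 1.17.1, NumPy 2.4.6, pandas 2.3.3 and matplotlib 3.10.9 were used.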

Additional observations from a re-analysis of the deposited data

How the results depend on the processing

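The count of HCC1954 terms naming any of the 6 genes was 8 and moved beyond 1.5 times in 2 settings: 3 terms remained among those without TGFB1, GAS6 and AXL, and 5 when APBB1 was left out. It was 7 or 8 under the other member removals, a p under 0.05, at least 10 background genes or at least 3 listed genes, and 6 after collapse of overlapping terms (12 terms left of 37). Partners numbered 7 of 18 when at least 2 shared terms were required. The median fold, 6.27, ran from 4.24 to 8.30 over its alternatives, inside the median bounds of the terms' intervals. The MDA231 count stayed at 0 under both alternatives, of which the p limit could return nothing else. Of the 26 MDA231 relatives, 23 were in at least 2 terms. In all, 20 of 23 alternatives stayed within these limits, a count that includes those that could only return 0. Other outcomes in that count were also set in advance. The limit of at least 10 background genes could drop none of the 8 terms, as the smallest has 10. Leaving out ITPKA could drop none either, as its term also names APBB1 and FGF14. The place of the folds without the 6 genes was set in advance too, so the count is no measure of stability. No paired analysis was possible because no value per library is used, and no replicate could be left out. The planned protein comparison was not run, as no protein sequences were used here.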
